A study of Homo sapiens with 4 samples.

Results

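The region described here is the outer part of the short arm of human chromosome 7, from the first annotated row of the chromosome to a limit at 45000000 bases (GRCh38). Its members are the rows of the deposited gene table that lie on chromosome 7 and end at or before that limit. Of the 3015 rows of chromosome 7, 810 met this, and 21 of them (HOXA, ZNF and PSMA2 symbols) were left out, so that the region holds 789 of the 60676 rows of the table. The other 2168 rows of chromosome 7, without 37 rows left out in the same way, were its comparison. The region and its limit were chosen from the change between the groups that is described here, so the values of that change are given as a description, and no test of the region was made on them.

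The groups compared were both cultured untreated in serum-containing medium. Synph-293 (2 libraries) is the HEK293 line made to overexpress synphilin-1, the cytoplasmic protein encoded by SNCAIP, and HEK293 (2 libraries, labelled wild type) is the parent line, derived from human embryonic kidney. The labels give neither the promoter of the synphilin-1 construct nor whether Synph-293 was 1 clone or a pool, nor whether the replicate libraries come from cultures grown apart, so p-values measure only the spread between these libraries, which may be technical. Poly(A) RNA was sequenced as stranded libraries, with totals of 16471847 and 16634633 counts in Synph-293 and 16998732 and 13284417 counts in HEK293. SNCAIP had 1366 and 1524 CPM in Synph-293 and 1.01 and 1.20 CPM in HEK293, as its label states. Of the marker genes checked, KRT8, KRT18 and VIM were above 200 CPM in every library, and 4 of 6 genes of the embryonic kidney had at least 1 CPM in every library. The blood and endothelial genes PTPRC, CD3E, PECAM1 and CDH5 and the liver genes ALB and APOA1 were below 1 CPM in all 4 libraries, whereas the haemoglobin gene HBB had between 23.5 and 33.5 CPM.

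The short arm of chromosome 7 carries genes of unrelated functions side by side. Among them are ACTB, which encodes cytoplasmic beta-actin, the small GTPase gene RAC1, PMS2 of DNA mismatch repair, the cytochrome c gene CYCS, PPIA, which encodes the proline isomerase cyclophilin A, and GLI3, a transcription factor of Hedgehog signalling. HEK293 is an aneuploid line, and its sublines are known to differ in karyotype. RNA-seq counts transcripts and not DNA, so the number of copies of the arm in either line was not measured.

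The promoters of 4 members are printed to show the kind of start site the region holds. They belong, in each of 4 successive stretches of the region, to the most abundant protein-coding member that has an entry in the promoter table used, which has none for ACTB. Each runs from 250 bases before to 50 bases after the start of the gene (RefSeq, GRCh38.p14), and capitals mark CpG dinucleotides. EIF3B, a subunit of the translation initiation factor eIF3, has its promoter at chr7:2354577-2354876, plus strand. The promoter of BZW2, a translation regulator related to eIF5, is at chr7:16645931-16646230, plus strand. That of HNRNPA2B1, an RNA-binding protein of mRNA splicing and transport, is at chr7:26200697-26200996, minus strand. That of PPIA is at chr7:44796431-44796730, plus strand.
EIF3B: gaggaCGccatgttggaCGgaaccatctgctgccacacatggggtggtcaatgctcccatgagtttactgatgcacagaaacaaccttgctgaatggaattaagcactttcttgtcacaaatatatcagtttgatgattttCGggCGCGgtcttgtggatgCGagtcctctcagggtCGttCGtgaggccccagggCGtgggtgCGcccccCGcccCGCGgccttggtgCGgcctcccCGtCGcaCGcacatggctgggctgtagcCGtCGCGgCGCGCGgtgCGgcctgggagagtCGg
BZW2: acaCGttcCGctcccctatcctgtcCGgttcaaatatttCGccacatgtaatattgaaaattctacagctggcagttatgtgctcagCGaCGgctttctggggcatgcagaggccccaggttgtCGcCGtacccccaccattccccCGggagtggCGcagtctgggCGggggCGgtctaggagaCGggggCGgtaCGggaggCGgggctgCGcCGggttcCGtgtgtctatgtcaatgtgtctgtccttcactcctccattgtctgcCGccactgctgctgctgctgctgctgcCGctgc
HNRNPA2B1: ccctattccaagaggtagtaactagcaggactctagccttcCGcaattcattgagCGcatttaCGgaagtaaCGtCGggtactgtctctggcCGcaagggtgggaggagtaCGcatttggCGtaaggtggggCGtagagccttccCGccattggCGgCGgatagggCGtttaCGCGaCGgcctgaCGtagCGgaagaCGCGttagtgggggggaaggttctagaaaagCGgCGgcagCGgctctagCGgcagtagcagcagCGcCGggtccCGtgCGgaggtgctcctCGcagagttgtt
PPIA: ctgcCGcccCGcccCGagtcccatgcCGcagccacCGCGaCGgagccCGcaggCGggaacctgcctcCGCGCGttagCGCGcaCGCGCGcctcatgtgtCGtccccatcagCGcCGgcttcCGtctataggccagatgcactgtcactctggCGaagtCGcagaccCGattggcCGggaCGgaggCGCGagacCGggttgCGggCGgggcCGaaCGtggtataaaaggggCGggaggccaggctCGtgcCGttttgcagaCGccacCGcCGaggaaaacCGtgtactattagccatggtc

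These 4 promoters held 25, 21, 29 and 40 CpG dinucleotides in 300 bases. Of the 229 members that passed the filter on low counts, 146 had a promoter entry, with a median of 28 CpG dinucleotides, against 27 in 375 other tested rows of chromosome 7 and 14 in all 35114 RefSeq promoters. The motif TATAAA, searched on both strands, was found in 8 (5.48%) of the 146, in 5.33% of the other tested rows of the chromosome and in 11.5% of all promoters. CCAAT, searched likewise, was found in 54 (37.0%), against 37.1% and 34.6%. The promoter composition of the region was thus close to that of the rest of the chromosome. Among the 146 members, the median log2 fold change was -0.50 in the 48 with the fewest CpG dinucleotides, -0.54 in the next 49 and -0.49 in the 49 with the most.

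The median transcript level of the region was lower in Synph-293 than in HEK293, in every stretch of it. Of the 789 members, 397 had no count in any library and 163 had counts but did not pass the filter, which left 229, of which 181 were protein-coding and 31 long noncoding RNA genes. Their median log2 fold change, Synph-293 over HEK293, was -0.50, a ratio of 0.705, with quartiles of -0.70 and -0.25. The other 539 tested rows of chromosome 7 had a median of 0.02 and quartiles of -0.19 and 0.27, and the 15609 tested rows of the other chromosomes had a median of -0.0082. The difference between the medians of the region and of the rest of the chromosome was -0.52. Of the 229 tested members, 201 (87.8%) had a value below 0, against 258 (47.9%) of the other tested rows of the chromosome.

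The libraries of each group lay close together. The median log2 ratio over the tested members was -0.46 for Synph-293 replicate 1 over HEK293 replicate 1 and -0.45 over HEK293 replicate 2. It was -0.50 for Synph-293 replicate 2 over HEK293 replicate 1 and -0.51 over HEK293 replicate 2. Between replicates, the same median was -0.034 for Synph-293 replicate 2 over replicate 1 and 0.029 for HEK293 replicate 2 over replicate 1, so all 4 ratios between groups were larger than those within groups. In the rest of chromosome 7 the 4 ratios between groups lay between 0.0059 and 0.047. Summed over all 789 members, the region made up 1.19% and 1.07% of the counts in the Synph-293 libraries and 1.39% and 1.55% in the HEK293 libraries. The ranges of the groups did not overlap, nor did they without ACTB, the member with the second highest level per length (0.976% and 0.912% of counts in Synph-293, 1.23% and 1.31% in HEK293). The rest of the chromosome made up 1.95% and 1.87% of the counts in Synph-293 and 1.99% and 2.00% in HEK293. These ranges, although closer together, did not overlap either. The 163 members with counts that did not pass the filter summed to 17.6 and 20.01 CPM in Synph-293 and 22.6 and 18.7 CPM in HEK293, which overlap.

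**Figure D1:**
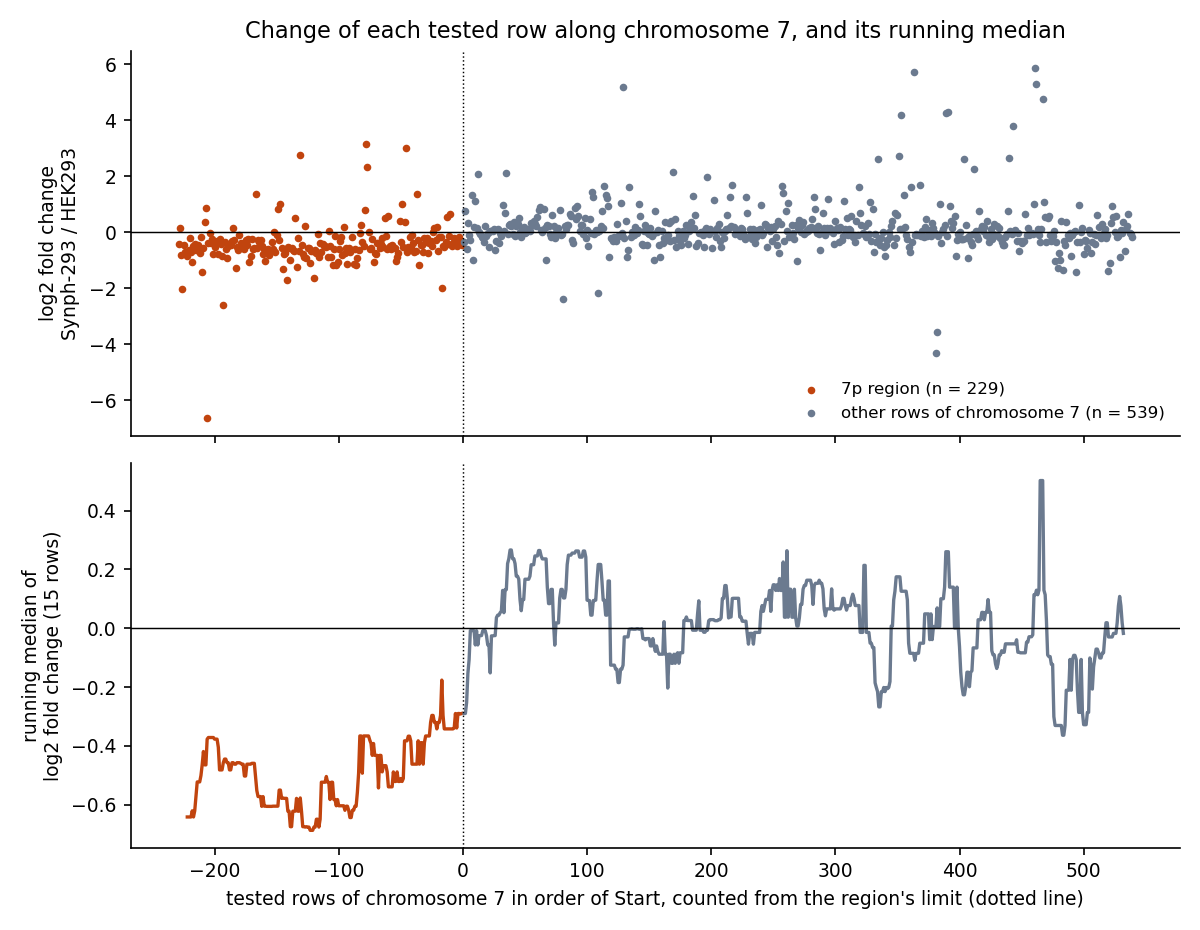
Log2 fold change (Synph-293 over HEK293) of each of the 229 tested rows of the region (left of the dotted line) and the 539 other tested rows of chromosome 7, in order of position, with the running median over 15 neighbouring rows in the lower panel. All running medians centred within the region lie below 0, between -0.69 and -0.18, while those of the rest of the chromosome lie between -0.36 and 0.50.

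Taken gene by gene, the changes were small and most did not pass the test across all genes. By edgeR's quasi-likelihood test (adjusted p under 0.05 over all 16421 tested rows), 75 of the 229 tested members were called lower and 7 higher, beside a background of 6.58% called lower and 10.0% called higher. As the region was chosen from this contrast, these counts support nothing further. Without Synph-293 replicate 1 the count of lower calls was 29, and without Synph-293 replicate 2 it was 24. Without HEK293 replicate 1 it was 99, and without HEK293 replicate 2 it was 103. The count of higher calls was 4 without Synph-293 replicate 1. With limma the lower calls numbered 38 on log2(TPM + 1) and 32 on log2(TPM + 0.1), and with the replicate numbers crossed as a block, an alternative chosen after seeing the data, they numbered 140. The medians were less affected and lay between -0.51 and -0.49 whichever library was left out. Both Synph-293 libraries were below both HEK293 libraries in CPM for 173 (75.5%) of the tested members, where 29.1% of all tested rows were, and above both for 21 (9.17%), where 30.5% of all tested rows were. Of these 229, 178 (77.7%) had a log2 fold change of at least -1 and below 0, and 23 (10.0%) were lower than -1.

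**Figure D2:**
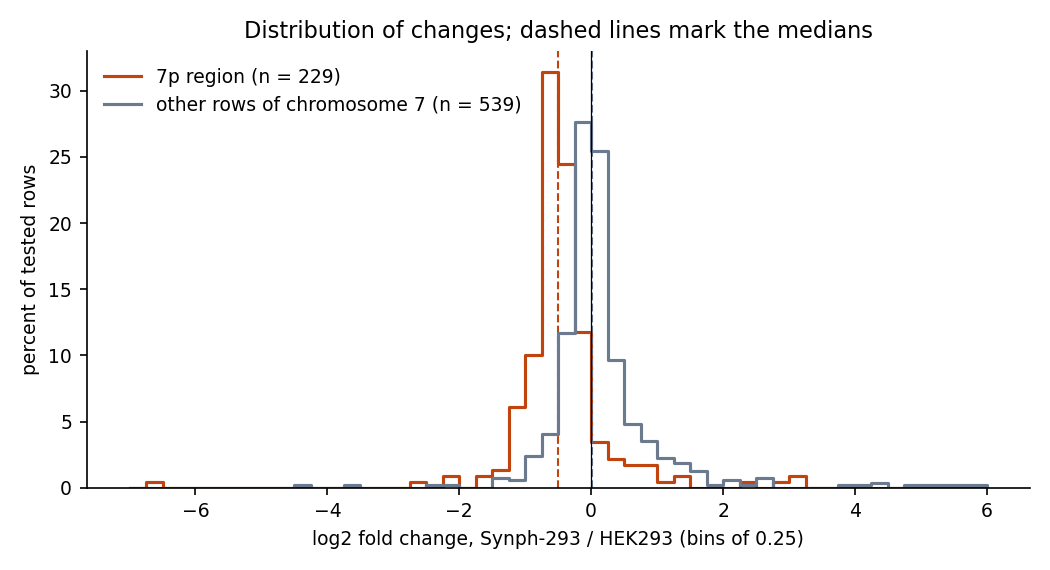
Share of tested rows (percent, vertical axis) by log2 fold change in bins of 0.25, for the 229 tested rows of the region and the 539 other tested rows of chromosome 7; dashed lines mark the medians, -0.50 and 0.02. The interquartile ranges, 0.45 in both sets, are alike, and the curve of the region lies to the left.

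Along Start, the median was below 0 in each of the 9 bins of 5 Mb, by different amounts. Bins are given by their limits in Mb. The median log2 fold change was -0.51 from 0 to 5 Mb over 42 tested rows and -0.50 from 5 to 10 Mb over 34. It was deepest from 15 to 20 Mb, at -0.69, where all 11 tested rows were below 0, and from 20 to 25 Mb, at -0.66 over 24 rows. It was -0.57 from 25 to 30 Mb over 20 rows, -0.49 from 30 to 35 Mb over 31 rows and -0.49 from 35 to 40 Mb over 21 rows. From 40 to 45 Mb, next to the limit, it was -0.37 over 39 rows.

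The bin from 10 to 15 Mb stood apart, with a median of -0.11 over 7 tested rows, 4 of them below 0. There the HEK293 libraries themselves differed by a median of -0.58 (replicate 2 over replicate 1), more than any of the 4 ratios between groups, which lay between -0.29 and 0.10. In the other 8 bins all 4 ratios between groups were below 0. With 10 Mb bins the medians lay between -0.59 and -0.37. The longest unbroken run of neighbouring tested rows below 0 held 21 rows, from ELFN1-AS1 to WIPI2 (1738630 to 5233840), and the longest in the rest of the chromosome held 7, from ASNS to BRI3.

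**Figure D3:**
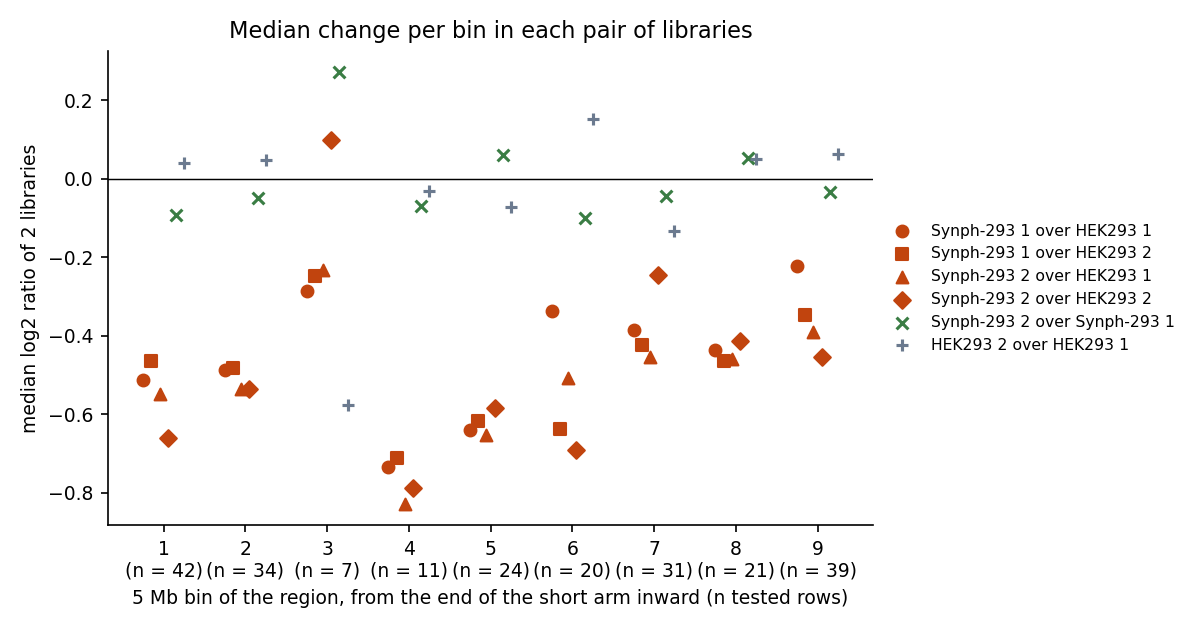
Median log2 ratio (vertical axis) of the tested rows in each 5 Mb bin of the region, from the end of the arm inward, for each of the 4 pairs of a Synph-293 and a HEK293 library and for the 2 pairs of replicates. The 4 pairs between groups lie below 0 in every bin except the third, where 1 of them is at 0.10 and the HEK293 replicates differ by -0.58.

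The 2 most abundant protein-coding members of each bin show the shift at the scale of single genes. They were chosen by level, within a region that was itself chosen by its change. In the first bin these were EIF3B and SUN1, which encodes a protein of the inner nuclear membrane. EIF3B had 321 and 289 CPM in Synph-293 and 415 and 463 CPM in HEK293, and its log2 fold change was -0.53 ± 0.17 (SE). SUN1 had 165 and 198 CPM in Synph-293 and 368 and 239.6 CPM in HEK293, with a log2 fold change of -0.74 ± 0.21. In both genes the 2 Synph-293 libraries lay below the 2 HEK293 libraries, and SUN1 was called lower. ACTB had 2062 and 1652 CPM in Synph-293 and 1592 and 2385 CPM in HEK293, and FSCN1, which encodes an actin-bundling protein, had 297 and 238 CPM in Synph-293 and 319 and 386 CPM in HEK293. The ranges of ACTB overlapped, and its log2 fold change was -0.10 ± 0.24, where FSCN1 had -0.40 ± 0.19 with no overlap and no call.

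Between 10 and 20 Mb, NDUFA4, a subunit associated with cytochrome c oxidase, had 54.7 and 53.6 CPM in Synph-293 and 98.7 and 65.8 CPM in HEK293. TMEM106B, a lysosomal membrane protein, had 36.6 and 47.7 CPM in Synph-293 and 84.3 and 53.4 CPM in HEK293. BZW2 had 58.2 and 48.9 CPM in Synph-293 and 78.9 and 99.6 CPM in HEK293. In each of the 3 the groups did not overlap, with log2 fold changes of -0.61, -0.71 and -0.74, and TMEM106B and BZW2 were called lower. TSPAN13, a tetraspanin, had 14.2 and 13.9 CPM in Synph-293 and 53.7 and 37.1 CPM in HEK293. At -1.70 ± 0.20 on the log2 scale, it had the lowest value of the tested rows of its bin, and it was called lower.

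From 20 to 30 Mb the 4 abundant genes differed among themselves. TOMM7, a small subunit of the protein import pore of mitochondria, had 31.8 and 32.5 CPM in Synph-293 and 61.97 and 59.7 CPM in HEK293, a log2 fold change of -0.92 ± 0.15, and was called lower. TRA2A, a splicing regulator, had 74.6 and 77.8 CPM in Synph-293 and 78.6 and 80.7 CPM in HEK293, and its log2 fold change was -0.063. HNRNPA2B1 had 1385 and 1439.9 CPM in Synph-293 and 1202 and 1526 CPM in HEK293. The groups overlapped in HNRNPA2B1, with a log2 fold change of 0.051 ± 0.20, while its neighbour CBX3, a heterochromatin protein, had 187 and 169 CPM in Synph-293 and 238 and 264 CPM in HEK293 and -0.50 ± 0.16 without overlap. HNRNPA2B1 (26173057 to 26201529, minus strand) and CBX3 (26201162 to 26213607, plus strand) overlap at their starts in the deposited annotation.

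From 30 Mb to the limit, all 6 of these genes had lower means in Synph-293. GARS1, the glycyl-tRNA synthetase, had 99.01 and 96.2 CPM in Synph-293 and 108 and 144 CPM in HEK293, and GGCT, a cyclotransferase of glutathione breakdown, had 43.99 and 36.3 CPM in Synph-293 and 57.1 and 68.5 CPM in HEK293. SEPTIN7, a cytoskeletal GTPase, had 119 and 120.1 CPM in Synph-293 and 168 and 185 CPM in HEK293. ANLN, which encodes the cytokinesis protein anillin, had 125 and 154 CPM in Synph-293 and 254 and 218 CPM in HEK293. The log2 fold changes were -0.37 for GARS1, -0.64 for GGCT, -0.56 for SEPTIN7 and -0.76 for ANLN, and the last 3 were called lower. PPIA had 833 and 774 CPM in Synph-293 and 855 and 1060.1 CPM in HEK293, and POLD2, a subunit of DNA polymerase delta, had 161 and 141 CPM in Synph-293 and 185 and 249 CPM in HEK293. Their log2 fold changes were -0.25 ± 0.19 and -0.52 ± 0.19, and neither was called although the groups did not overlap. Of all 18 genes, 17 had a log2 fold change below 0 and 8 were called lower, beside 51.3% and 6.58% of all tested rows. As the region was chosen from this contrast, these counts are a description only.

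**Figure D4:**
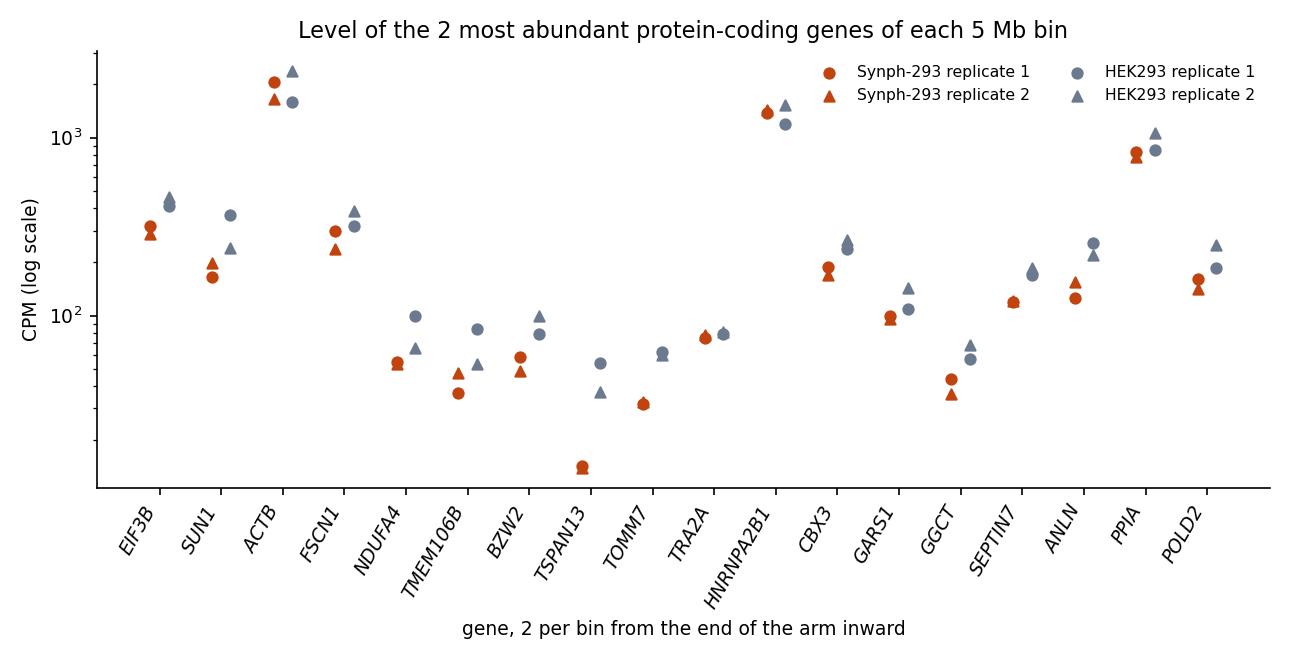
CPM (log axis) in each library of the 2 most abundant protein-coding genes of each 5 Mb bin, with bins in order from the end of the arm inward; circles are replicate 1 and triangles replicate 2 of each group. The Synph-293 libraries lie below both HEK293 libraries in all of these genes except ACTB and HNRNPA2B1, where the groups overlap. Over all tested rows, both Synph-293 libraries lay below both HEK293 libraries in 29.1%.

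The shift was of similar size in most classes of rows that were examined. By level, the 76 least abundant tested members (mean TPM over the 4 libraries) had a median log2 fold change of -0.50, the next 76 had -0.48 and the 77 most abundant had -0.52. The shares below 0 differed more, at 73.7%, 92.1% and 97.4%, and the interquartile range of the log2 fold changes was 0.95, 0.41 and 0.32, so abundant members were the most alike. In the rest of chromosome 7 the medians of the corresponding classes were 0.31, -0.053 and -0.033. Their interquartile ranges were 1.03, 0.39 and 0.34, so the spread narrowed with level there too and is not particular to the region. The 114 tested members on the plus strand and the 115 on the minus strand both had a median of -0.50. Protein-coding members had -0.51 and long noncoding RNA genes -0.50, while the remaining 17 rows, which include pseudogenes, had -0.25. By the span of the gene on the chromosome the medians were -0.51 for the 76 shortest, -0.43 for the next 76 and -0.56 for the 77 longest.

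The shift was also found across gene roles. The members were sorted into 7 lists by what their products do, 94 symbols in all, of which 93 lie in the region and 85 were tested. The medians of the lists lay between -0.55 and -0.40, on either side of the median of -0.50 of all tested members. In each list most members were below 0, from 9 of 15 for secreted and receptor signalling to all members of 3 lists. The numbers called in each list, given below, stand beside 32.8% called lower and 3.06% called higher among all tested members. Over all tested rows these shares were 6.58% and 10.0%. The counts describe members chosen for their place in the region and set no list apart from the others.

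Among genes for mitochondrial proteins, all 11 tested were below 0, with a median of -0.50, and 3 were called lower. MRPS24, a protein of the small mitochondrial ribosomal subunit, had 40.1 and 34.9 CPM in Synph-293 and 63.3 and 60.8 CPM in HEK293. MRPL32, of the large subunit, had 39.6 and 48.4 CPM in Synph-293 and 68.3 and 52.95 CPM in HEK293, and CYCS had 119 and 96.1 CPM in Synph-293 and 144 and 160.3 CPM in HEK293. The groups did not overlap in these 3 genes, of which MRPS24 was called. In translation and tRNA charging, all 7 tested were below 0, with a median of -0.46, and 2 were called lower. AIMP2, a scaffold of the tRNA synthetase complex, overlapped between the groups, at 43.6 and 39.4 CPM in Synph-293 and 43.3 and 57.5 CPM in HEK293.

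Of 9 tested genes for RNA processing and transcription, 8 were below 0, the median was -0.50 and 4 were called lower. INTS1, the largest subunit of the Integrator complex, had 211 and 207 CPM in Synph-293 and 373 and 334 CPM in HEK293, with a log2 fold change of -0.76 ± 0.17. DDX56, a nucleolar RNA helicase, had 92.4 and 74.1 CPM in Synph-293 and 114 and 122 CPM in HEK293, with -0.50 ± 0.17. INTS1 was called and DDX56 was not. Of 9 genes for DNA replication, repair and mitosis, all were below 0, with a median of -0.52 and 4 called lower. RPA3, the smallest subunit of the single-strand DNA-binding protein RPA, had 21.2 and 14.4 CPM in Synph-293 and 41.03 and 31.9 CPM in HEK293, and NUDT1, which removes oxidised nucleotides, had 20.5 and 15.8 CPM in Synph-293 and 18.1 and 24.5 CPM in HEK293. RPA3 was called lower at -1.04 ± 0.21, and the groups overlapped in NUDT1.

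In the traffic of secretory, endosomal and autophagic membranes, 14 of 15 tested were below 0, with a median of -0.55, and 6 were called lower and 1 higher. GET4, which helps insert tail-anchored proteins into the ER membrane, had 52.3 and 44.7 CPM in Synph-293 and 88.4 and 87.1 CPM in HEK293. KDELR2, a receptor that returns ER proteins, had 115 and 120.4 CPM in Synph-293 and 195 and 150.2 CPM in HEK293, and the SNARE gene YKT6 had 82.7 and 68.01 CPM in Synph-293 and 85.9 and 105 CPM in HEK293. None of these overlapped between the groups, and GET4 was called. TMED4, a cargo receptor of the early secretory pathway, had 103 and 109 CPM in Synph-293 and 156 and 123 CPM in HEK293, also without overlap. The member called higher was AMPH, described below with the other exceptions.

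Of 19 tested chromatin and transcription factor genes, 17 were below 0, with a median of -0.40 and 4 called lower. H2AZ2, a histone variant, overlapped between the groups, at 108 and 88.6 CPM in Synph-293 and 102 and 118 CPM in HEK293, as did PHF14, a nuclear PHD-finger protein, at 43.9 and 55.9 CPM in Synph-293 and 47.6 and 52.1 CPM in HEK293. TNRC18, a nuclear protein with a chromatin-reading domain, had 98.4 and 98.6 CPM in Synph-293 and 125 and 115 CPM in HEK293, without overlap.

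Genes for secreted and receptor signalling were the most varied, with 9 of 15 tested below 0, a median of -0.44, 5 called lower and 3 higher. PDGFA, a platelet-derived growth factor chain, had 11.9 and 11.05 CPM in Synph-293 and 19.1 and 20.9 CPM in HEK293. GNA12, a G protein alpha subunit, had 49.2 and 41.8 CPM in Synph-293 and 72.6 and 91.1 CPM in HEK293, and both were called lower. RALA, a small GTPase, had 41.9 and 34.98 CPM in Synph-293 and 48.9 and 63.1 CPM in HEK293. PRKAR1B, a regulatory subunit of protein kinase A, had 16.9 and 15.7 CPM in Synph-293 and 19.8 and 24.5 CPM in HEK293. RALA and PRKAR1B did not overlap between the groups and were not called.

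**Figure D5:**
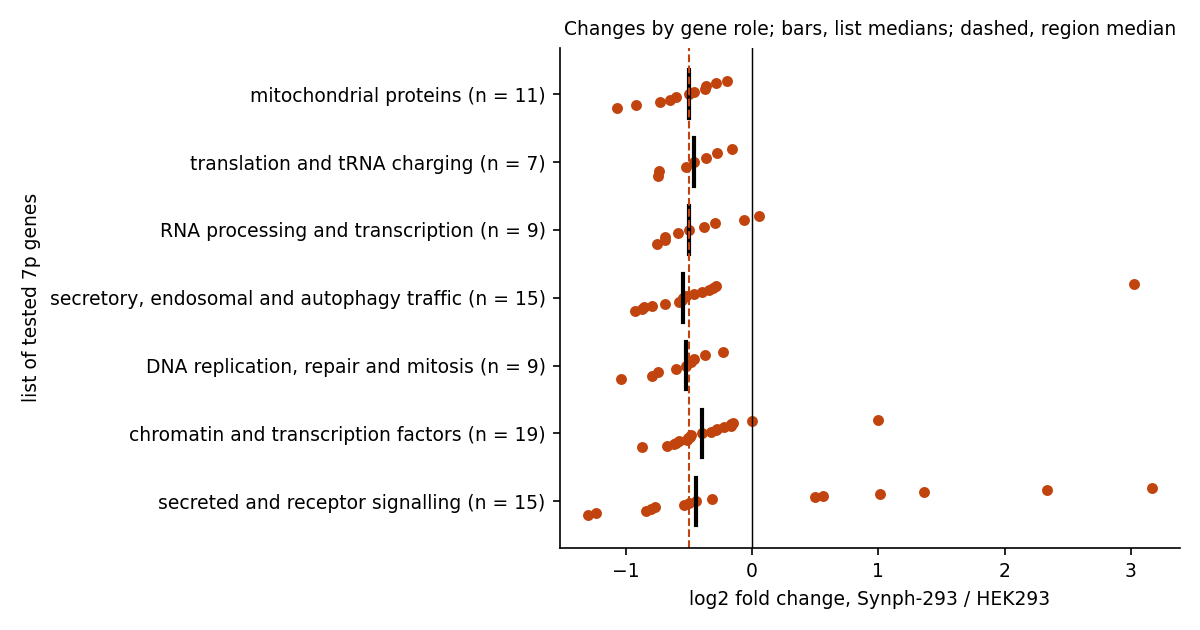
Log2 fold change (horizontal axis) of the tested members in each of 7 lists by role; each point is 1 gene, black bars are list medians and the dashed line is the median of all tested members, -0.50. The list medians lie between -0.55 and -0.40, and the points far to the right are low-level genes such as ADCYAP1R1 and AMPH.

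A few members stood far from the regional value. Among protein-coding members with a mean of at least 5 CPM, TSPAN13 was one of the 4 lowest. So were GPNMB, a transmembrane glycoprotein, at 9.78 and 12.5 CPM in Synph-293 and 41.9 and 26.7 CPM in HEK293, and ITGB8, the integrin beta-8 chain, at 10.1 and 11.2 CPM in Synph-293 and 28.8 and 21.6 CPM in HEK293. These 3 were called lower, and none overlapped between the groups. The highest value was that of ELFN1, a synaptic adhesion protein, at 10.9 and 13.7 CPM in Synph-293 and 8.01 and 5.32 CPM in HEK293 and 0.88 ± 0.24, the one of its set that was called higher. CAMK2B, a subunit of the kinase CaMKII, had 7.51 and 7.30 CPM in Synph-293 and 5.16 and 4.87 CPM in HEK293, and ELMO1, a regulator of RAC1 activation, had 6.26 and 5.52 CPM in Synph-293 and 3.97 and 5.02 CPM in HEK293. Neither overlapped between the groups, whereas CHN2, a Rac GTPase-activating protein, overlapped at 5.84 and 7.06 CPM in Synph-293 and 5.40 and 5.99 CPM in HEK293.

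The other 6 members called higher had lower levels, and they are named here after their values were seen. AMPH, the endocytic protein amphiphysin, had 7.63 and 8.72 CPM in Synph-293 and 0.889 and 1.12 CPM in HEK293. ADCYAP1R1, the receptor of the neuropeptide PACAP, had 8.70 and 7.43 CPM in Synph-293 and 0.949 and 0.824 CPM in HEK293. DNAH11, a dynein heavy chain of cilia, had 5.19 and 6.51 CPM in Synph-293 and 0.889 and 0.824 CPM in HEK293. In HEK293 these 3 genes were at about 1 CPM in each library, on 11 to 16 counts. PDE1C, a calmodulin-dependent phosphodiesterase, had 1.43 and 0.982 CPM in Synph-293 and 0.119 and 0.374 CPM in HEK293, from 2 and 5 counts in HEK293. INHBA, the inhibin beta A chain, had 1.25 and 1.84 CPM in Synph-293 and 0.593 and 0.599 CPM in HEK293, and GRID2IP, which binds a delta glutamate receptor, had 1.73 and 1.66 CPM in Synph-293 and 0.830 and 0.449 CPM in HEK293. Their log2 fold changes were 1.36 ± 0.42 for INHBA and 1.36 ± 0.41 for GRID2IP, and no library of Synph-293 overlapped with HEK293 in any of the 6 genes. The lowest fitted log2 fold change of the tested members was that of the antisense transcript ELFN1-AS1, likewise named after its value was seen. It had 0 and 1 counts in Synph-293 and 52 and 61 counts in HEK293, and it overlaps ELFN1 on the opposite strand.

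The last 20 tested rows inside the limit had a median of -0.37, with 18 below 0, and the first 20 outside had -0.041, with 12 below 0. Around the limit, the nearest tested row inside is the long noncoding RNA gene SNHG15 (named after its values were seen), with 50.1 and 49.7 CPM in Synph-293 and 82.1 and 55.3 CPM in HEK293, without overlap and without a call, and a log2 fold change of -0.46. The 3 nearest protein-coding rows inside, with a mean of at least 5 CPM, are PPIA, H2AZ2 and PURB, a single-strand nucleic acid-binding protein, at -0.25, -0.15 and -0.40. The 3 nearest outside are CCM2 (44999475 to 45076469), a scaffold gene of cerebral cavernous malformation, at -0.34, NACAD at 0.77 and TBRG4, a mitochondrial RNA-binding protein, at -0.60. CCM2 had 31.7 and 27.5 CPM in Synph-293 and 33.1 and 41.9 CPM in HEK293, without overlap and without a call. NACAD, which resembles a subunit of the nascent polypeptide-associated complex, had 16.7 and 15.2 CPM in Synph-293 and 8.42 and 10.3 CPM in HEK293 and was called higher. TBRG4 had 69.3 and 63.3 CPM in Synph-293 and 96.95 and 104 CPM in HEK293 and was called lower. The running median over 15 rows first reached 0 outside the limit, at the 27th tested row (CHCHD2, 56101573 to 56106476). The bins outside had medians of 0.18 from 45 to 50 Mb over 10 tested rows, -0.057 from 50 to 55 Mb over 5, and 0.0056 from 55 to 60 Mb over 12.

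Elsewhere on chromosome 7, bins with at least 10 tested rows had medians between -0.36 and 0.22, and the lowest was the bin from 145 to 150 Mb over 11 rows. Across whole chromosomes the medians lay between -0.27 on chromosome 10 and 0.32 on chromosome X. Of 501 bins of 5 Mb on other chromosomes with at least 7 tested rows, 62 (12.4%), on 11 chromosomes, had a median below -0.3, where 8 of the 9 bins of the region did. The longest run of neighbouring bins below -0.3 on another chromosome held 9 bins, on chromosome 8. Long stretches of lower values were therefore found outside the region too. Whether reads were counted by strand is not stated by the submitters' notes used here, and 27 of the 48 rows of chromosome 7 chosen by rule overlap another row, 23 of them one on the opposite strand. Their reads may be counted together, as may those of ACTB and PPIA with processed pseudogenes elsewhere.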

How the data were processed

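Poly(A) RNA was sequenced in 4 libraries. Reads were processed with cutadapt 2.8, STAR 2.7.1a, RSEM 1.3.1 and other tools on GRCh38.p13, per the submitters' processing notes, which give no roles. The authors deposited 1 table of gene rows with expected counts, RPKM and TPM values per library, and its headers name no counting options. Expected counts were rounded to whole numbers. Rows were kept by filterByExpr (minimum count 10, minimum total 15), which left 16421 rows, and tested with edgeR 4.0.16 (TMM, quasi-likelihood test, adjusted p under 0.05) in R 4.3.3 over all rows. CPM was computed from TMM-scaled totals; TPM, as the authors deposited it, set the order of levels, and RPKM values in the deposited table were left unused. The biological coefficient of variation was 13.0%, and 2 libraries a group limit the precision.

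The region, its limit, the lists by role and the genes named were chosen with earlier results of these data known. Named genes were the 2 most abundant protein-coding rows of each bin, the 3 protein-coding rows with a mean of at least 5 CPM nearest the limit on each side, the 4 lowest and 4 highest log2 fold changes among such rows of the region and up to 4 abundant members of each list; 1 gene of the lowest and 1 further list are not reported here. Alternatives were DESeq2 1.42.0, limma 3.58.1 on log2 TPM, other filters, limits and bins, a replicate block and leaving out each library.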

Additional observations from a re-analysis of the deposited data

How the results depend on the processing

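The median log2 fold change of the region (-0.50) was below 0 in all 18 alternatives and lay between -0.54 and -0.43. It was -0.4562 with no filter, -0.4722 with a mean of at least 5 CPM, -0.4310 on log2(TPM + 1) and -0.5432 with the limit at 40 Mb, and -0.5124 to -0.4879 with 1 library left out. The difference from the rest of the chromosome (-0.52) was -0.4675 with a mean of at least 5 CPM and -0.4678 on log2(TPM + 1), and -0.5405 to -0.5142 with 1 library left out. The median of the rest of the chromosome (0.0188) was 0.0488 with no filter, -0.0047 with at least 5 CPM, 0.0368 on log2(TPM + 1), 0.0526 on log2(TPM + 0.1), -0.0005 for protein-coding rows and -0.0034 with the limit at 40 Mb, and 0.0149 to 0.0412 with 1 library left out.

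Counts of calls moved more. Against 75 lower calls there were 38 on log2(TPM + 1), 32 on log2(TPM + 0.1) and 24 to 103 with 1 library left out. Against 7 higher calls there were 4 with DESeq2, 1 with at least 5 CPM, where fewer rows were tested, 3 on log2(TPM + 1), 3 on log2(TPM + 0.1) and 4 to 10 with 1 library left out. The cause of these changes was not tested. Whether same-numbered libraries were handled together was not tested. Their deviations from the group means correlated at -0.28 over all tested rows and at -0.31 over the tested members of the region. With the replicate number as a block the counts were 50 lower and 6 higher, and the median was -0.5058. With the numbers crossed, an alternative chosen after seeing the data, they were 140 lower and 12 higher.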
